A study of Mus musculus with 6 samples.

Results

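The receptors through which neutrophils sense formylated peptides, complement fragments and the lipids leukotriene B4 and platelet-activating factor were followed in poly-A RNA of meningeal neutrophils. They were taken by symbol as 7 genes, Fpr1, Fpr2, C5ar1, C5ar2, C3ar1, Ltb4r1 and Ptafr, of 21955 genes in each count table. All 7 were found, and all 7 were among the 11903 genes that passed the filter on low counts. The cells came from wild-type mice that had been exposed to a social threat, and were isolated from dura mater, the tough outermost sheet of the meninges. There were 3 libraries labelled female and 3 labelled male, all after exposure, so the genotype and the exposure are shared by both groups and no unexposed library enters. Neither the strain, the age, the sorting markers nor the number of animals per library is given in the labels, and nothing says that the libraries are separate animals. The spread that p-values are set against may therefore be technical.

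Neutrophils find their way to damage and microbes by reading gradients of end-target and intermediary attractants with receptors that couple to inhibitory G proteins. Formylated peptides, which are shed by bacteria and by injured mitochondria, and the complement fragment C5a are classed as end-target attractants, whereas leukotriene B4 is released by neutrophils themselves and relays the signal from cell to cell. Fpr1 encodes the high-affinity receptor of formylated peptides, and Fpr2 a broader receptor that also binds annexin A1 and serum amyloid A. C5ar1 encodes the signalling receptor of C5a, and C5ar2 a second C5a receptor that does not couple to G proteins and recruits arrestins. C3ar1 encodes the receptor of C3a, Ltb4r1 the high-affinity receptor of leukotriene B4, and Ptafr the receptor of platelet-activating factor.

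Total counts ranged from 17098026 to 20778410 per library, which gave each of the 7 genes between 26 and 4486 counts in a library. Genes of the Y chromosome (Ddx3y, Eif2s3y, Kdm5d and Uty) summed to 328, 312 and 327 CPM (counts scaled to the size of the library) in the libraries labelled female, against 315, 318 and 307 CPM in those labelled male. All 3 libraries labelled female thus go against their label, so the groups are named by their labels, and a direction is a difference between libraries so labelled. Female replicate 3 stood further from its group than any other library did (chi-square per degree of freedom of 13.4 and 16.5 against the others labelled female, which differed by 5.14). Results other than correlations are therefore also given without it where that changes them.

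The stretches just before the transcription starts of 4 of the receptors are shown because the first 3 of them differed between the groups and the fourth, though abundant, did not. Each is the 250 bases before the RefSeq start in GRCm38.p6, an older build than that of the counts, written 5′ to 3′ along the gene's strand. They lie at chr17:17883940-17884189 (minus strand) for Fpr1, chr17:17887574-17887823 (plus) for Fpr2, chr7:16259339-16259588 (minus) for C5ar1 and chr14:55765712-55765961 (plus) for Ltb4r1. Capitals mark, on either strand, the letters TTNCNNAA, a loose form of the C/EBP motif, and GAGGAA, a core of the PU.1 motif, both named for regulators of myeloid genes.
Fpr1: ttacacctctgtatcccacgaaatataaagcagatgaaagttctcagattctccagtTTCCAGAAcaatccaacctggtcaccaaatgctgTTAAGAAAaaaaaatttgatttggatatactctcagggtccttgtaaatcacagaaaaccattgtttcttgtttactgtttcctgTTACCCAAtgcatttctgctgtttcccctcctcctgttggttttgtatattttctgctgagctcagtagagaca
Fpr2: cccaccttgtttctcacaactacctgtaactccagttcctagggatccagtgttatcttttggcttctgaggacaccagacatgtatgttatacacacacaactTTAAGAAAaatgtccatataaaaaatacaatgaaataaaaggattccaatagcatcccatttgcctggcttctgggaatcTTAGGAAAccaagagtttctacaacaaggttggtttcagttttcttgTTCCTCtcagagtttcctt
C5ar1: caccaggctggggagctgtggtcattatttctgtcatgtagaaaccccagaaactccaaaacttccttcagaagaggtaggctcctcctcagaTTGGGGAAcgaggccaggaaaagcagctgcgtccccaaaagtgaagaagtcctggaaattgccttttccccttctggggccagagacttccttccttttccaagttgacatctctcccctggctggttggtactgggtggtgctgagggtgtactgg
Ltb4r1: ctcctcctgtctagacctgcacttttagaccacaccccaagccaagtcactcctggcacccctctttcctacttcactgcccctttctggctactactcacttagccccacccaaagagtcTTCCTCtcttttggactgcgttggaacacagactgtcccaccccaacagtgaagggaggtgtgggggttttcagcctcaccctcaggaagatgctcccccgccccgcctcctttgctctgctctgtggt

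The C/EBP letters were present in the windows of Fpr1 (3 matches), Fpr2 (2), C5ar1 (1) and both annotated starts of C5ar2, and in none of those of C3ar1, Ltb4r1 and Ptafr, while 36.8% of 32851 mouse windows of the same length hold them. The PU.1 letters were in the windows of Fpr2, Ltb4r1, Ptafr and 1 of the C5ar2 starts, and in 23.3% of all windows. The third motif searched, TGANTCA for AP-1, was in the window of C3ar1 alone among the 7 genes and in 6.75% of all windows. A match is a description of letters and not a binding site.

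Fpr1, Fpr2 and C5ar1, the receptors of formylated peptides and of C5a, were higher in the libraries labelled female. Their values in the 2 groups did not overlap. Ltb4r1 and Ptafr, the receptors of the lipids, did not pass the test, nor did C5ar2 and C3ar1, which had few counts in every library. In edgeR's quasi-likelihood test with Benjamini-Hochberg adjustment over all genes, 3 of the 7 were higher and none was lower at an adjusted p under 0.05, against 7.29% of all tested genes higher and 6.62% lower. At an unadjusted p under 0.05 there were 4, the fourth being C5ar2, and DESeq2 and limma-voom also called 3 higher and 0 lower.

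Fpr1 (ENSMUSG00000045551, chromosome 17) had 80.4, 73.1 and 87.6 CPM in the libraries labelled female, against 40.4, 42.9 and 52.7 CPM in those labelled male. The lowest library labelled female lay well above the highest labelled male. Its log2 fold change of 0.83 (SE 0.089, adjusted p = 1.45e-06, a 1.77-fold difference with a 95% interval of 1.56 to 2.02) was the largest of the 7.

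Fpr2 (ENSMUSG00000052270), which neighbours Fpr1 on chromosome 17, had 189, 174 and 222 CPM in the libraries labelled female, against 127, 126 and 137 CPM in those labelled male. Female replicate 3 was the highest of all, and the groups did not overlap. The log2 fold change was 0.58 (SE 0.076, adjusted p = 1.58e-05), or 1.498-fold (1.34 to 1.67). Of the 50-base stretches in its annotated transcripts, 31.5% also occur in another gene, mainly the pseudogene Gm5966 and the paralog Fpr3. It is not stated how reads shared between copies were counted, so the level of Fpr2 is uncertain. Fpr3 itself had 1 count in a library labelled male and 0 in the other libraries, and Gm5966 was not analysed here. Fpr1 shared 0.0784% of its stretches.

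C5ar1 (ENSMUSG00000049130, chromosome 7) had 175, 167 and 197 CPM in the libraries labelled female, against 122, 120 and 132 CPM in those labelled male. Here too female replicate 3 was highest and the groups stood apart. The log2 fold change was 0.52 (SE 0.067, adjusted p = 1.41e-05), or 1.44-fold (1.31 to 1.59). None of its 50-base stretches occurs in another annotated gene.

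C5ar2 (ENSMUSG00000074361), the neighbour of C5ar1 on chromosome 7, had far fewer counts (134 to 208 per library) and did not pass the test. It had 9.89, 10.03 and 10.3 CPM in the libraries labelled female, against 8.08, 7.64 and 8.16 CPM in those labelled male. The groups did not overlap, and the spread within each was narrow. Its log2 fold change of 0.34 (SE 0.14, adjusted p = 0.101) has a 95% interval of 0.06 to 0.62, which takes in the change of C5ar1.

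C3ar1 (ENSMUSG00000040552, chromosome 6) had 27, 45 and 43 counts in the libraries labelled female, against 51, 26 and 63 in those labelled male, or 1.43, 2.27 and 2.13 CPM in the libraries labelled female, against 2.88, 1.48 and 3.75 CPM in those labelled male. The groups overlapped. With so few counts the 95% interval of its log2 fold change (-0.47, SE 0.32, adjusted p = 0.366) ran from -1.14 to 0.20. The direction was not resolved at this depth, while the upper bound lies below the interval of C5ar1.

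Ltb4r1 (ENSMUSG00000046908, chromosome 14) had 148, 131 and 168 CPM in the libraries labelled female, against 152, 139 and 151 CPM in those labelled male. Libraries labelled female held both the highest and the lowest value. The log2 fold change was 0.02 (SE 0.075, adjusted p = 0.905), and its 95% interval of -0.14 to 0.17 lies wholly below the intervals of Fpr1, Fpr2 and C5ar1.

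Ptafr (ENSMUSG00000056529, chromosome 4) had 48.5, 44.9 and 47.7 CPM in the libraries labelled female, against 42.7, 44.4 and 42.2 CPM in those labelled male. The groups did not overlap, by a margin smaller than the spread within either. The difference did not pass the test (log2 0.13, SE 0.072, adjusted p = 0.276, 95% interval -0.03 to 0.28). Over the 7 genes, 5 had groups that did not overlap with the libraries labelled female higher, and none the reverse, where 15.9% and 15% of all tested genes did so.

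**Figure D1:**
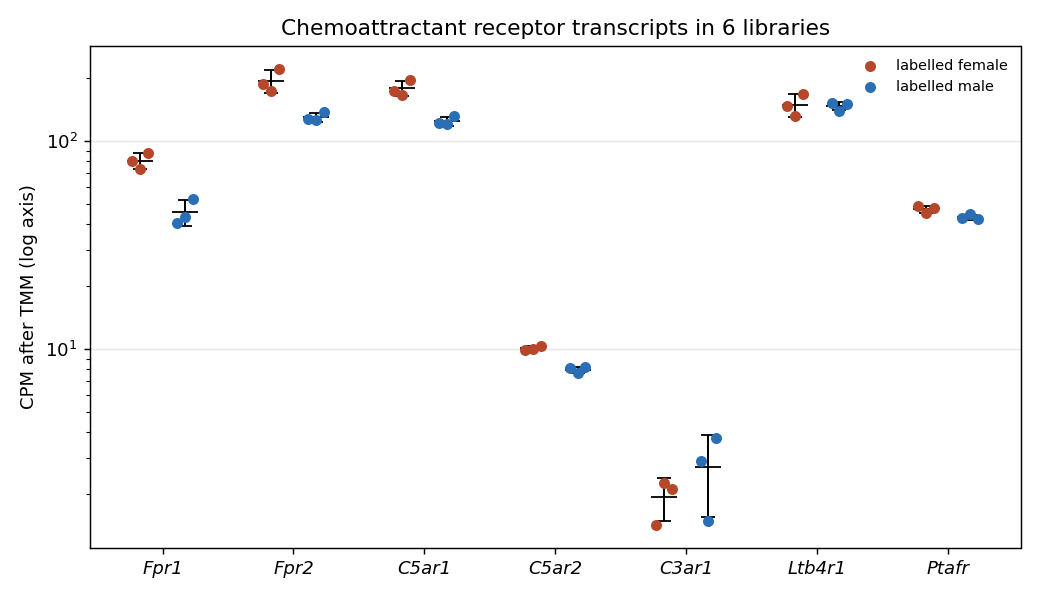
Level of each receptor in CPM after TMM normalization (vertical log axis) in the 3 libraries labelled female (left of each pair) and the 3 labelled male (right), with the mean and SD in black. Fpr1, Fpr2 and C5ar1 are separated between the groups, Ltb4r1 is not, and C3ar1 lies at 1.43 to 3.75 CPM.

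**Figure D2:**
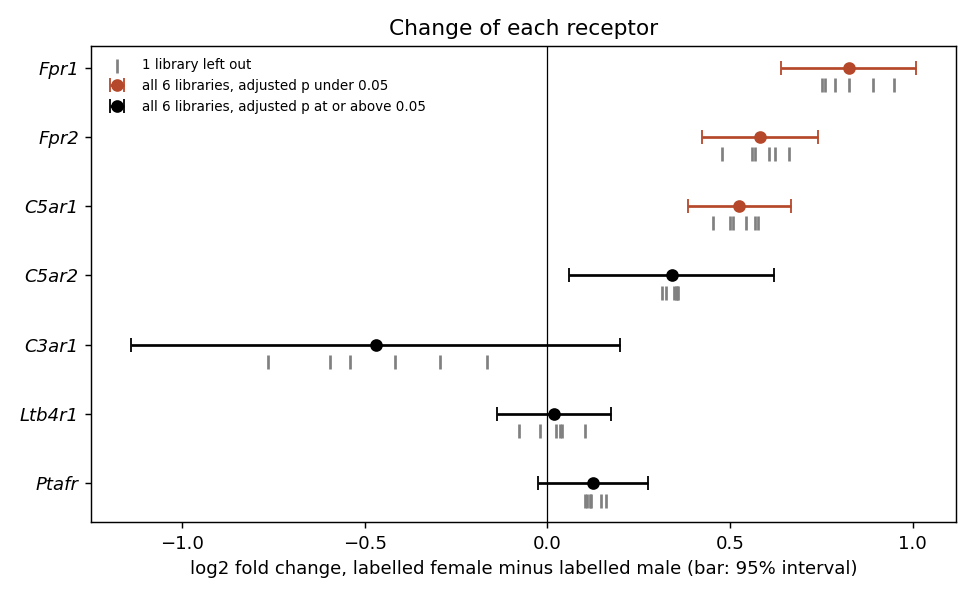
Log2 fold change of each receptor, libraries labelled female minus those labelled male (horizontal axis), with the 95% interval from all 6 libraries, and in grey the value with each library left out in turn. The intervals of Fpr1, Fpr2 and C5ar1 lie above that of Ltb4r1, and the grey marks of Ltb4r1 fall on both sides of 0.

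The 3 calls did not rest on a single library. With each library left out in turn, the log2 fold change ranged from 0.75 to 0.95 for Fpr1, from 0.48 to 0.66 for Fpr2 and from 0.45 to 0.58 for C5ar1, and all 3 passed the test each time by edgeR. Without female replicate 3 Ltb4r1 had a log2 fold change of -0.08 (adjusted p = 0.368), and without male replicate 2 it had -0.02 (adjusted p = 0.912).

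Whether the changes differed in size was examined with ratios of counts within each library, which need no normalization between libraries. There were 0.426, 0.421 and 0.394 counts of Fpr1 per count of Fpr2 in the libraries labelled female, against 0.318, 0.341 and 0.384 in those labelled male. Relative to C5ar1, Fpr1 had ratios of 0.46, 0.438 and 0.445 in the libraries labelled female, against 0.332, 0.356 and 0.399 in those labelled male. For C5ar1 to C5ar2 the ratios were 17.7, 16.6 and 19.1 in the libraries labelled female, against 15.1, 15.8 and 16.2 in those labelled male. In all 3 pairs the groups did not overlap, with log2 differences of 0.26 for Fpr1 to Fpr2, 0.31 for Fpr1 to C5ar1 and 0.18 for C5ar1 to C5ar2. Each had an exact two-sided permutation p of 0.1, also 0.1 after adjustment over the 3 ratios, which is the smallest that 3 against 3 libraries can give and does not pass the threshold. The test could therefore not decide whether the changes were unequal.

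**Figure D3:**
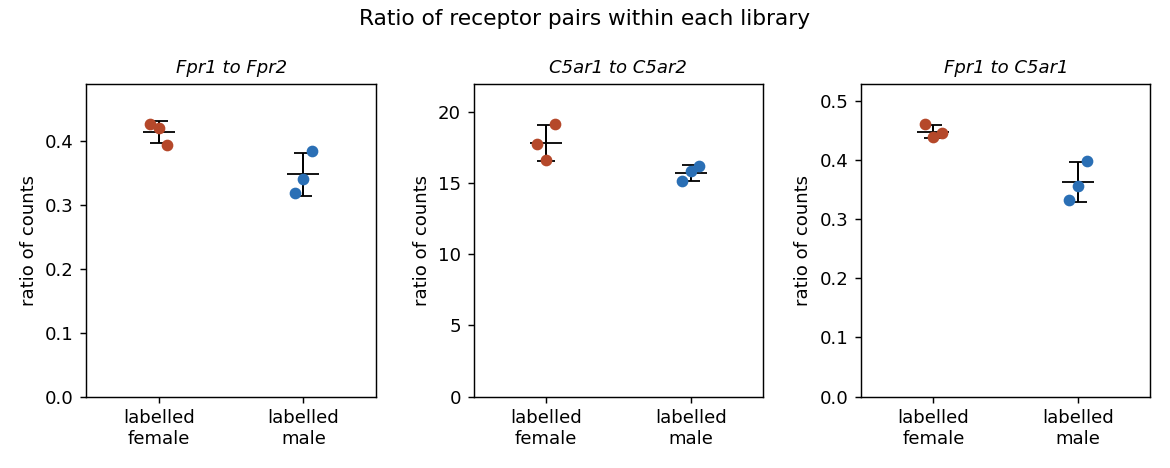
Ratio of the counts of 2 receptors within each library (vertical axes, from 0) for 3 pairs, with points for libraries labelled female (left) and male (right) and the mean and SD in black. Points of the libraries labelled female lie above those of the libraries labelled male in each panel, by the narrowest margin for Fpr1 to Fpr2 (0.394 for the lowest labelled female, against 0.384 for the highest labelled male).

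Compared between genes per kilobase of exon, Fpr2 had the highest level in the libraries labelled female, as far as its shared stretches leave that level certain. Its level there was 150 ± 19.3 CPM per kilobase, followed by Ltb4r1 with 107 ± 13.4, C5ar1 with 69.9 ± 6.06 and Fpr1 with 60.7 ± 5.49 (SD, n = 3). In the libraries labelled male Ltb4r1 (106 ± 5.06 CPM per kilobase) and Fpr2 (100 ± 4.76) did not differ beyond their spread, and C5ar1 (48.6 ± 2.44) and Fpr1 (34.3 ± 4.91) came next. Ptafr followed at 12.9 ± 0.526 CPM per kilobase in the libraries labelled female, against 11.9 ± 0.325 in those labelled male, C5ar2 at 2.83 ± 0.0606 in the libraries labelled female, against 2.24 ± 0.0781 in those labelled male, and C3ar1 at 0.451 ± 0.105 in the libraries labelled female, against 0.628 ± 0.266 in those labelled male. C5ar1 and Fpr1 overlapped in the libraries labelled female. Fpr2, C5ar1 and Ltb4r1 have the same coding length. Per kilobase of coding sequence the libraries labelled female had 185 ± 23.7 CPM of Fpr2, 171 ± 14.8 of C5ar1 and 142 ± 17.7 of Ltb4r1, and those labelled male had 140 ± 6.70 of Ltb4r1, 124 ± 5.86 of Fpr2 and 119 ± 5.96 of C5ar1. C5ar1 thus stood above Ltb4r1 by coding length in the libraries labelled female, and below it by either length in those labelled male.

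Across the 6 libraries the 3 receptors that differed varied together. Pearson's r of log2 CPM was 0.996 between Fpr2 and C5ar1, 0.986 between Fpr1 and C5ar1 and 0.973 between Fpr1 and Fpr2. These are descriptions over 6 libraries that share the group difference and the depth. After the group means were taken out, r was 0.984 between Fpr2 and C5ar1, 0.852 between Fpr1 and C5ar1 and 0.776 between Fpr1 and Fpr2. Ltb4r1, which did not follow the groups, then had r of 0.929 with Fpr2 and 0.883 with C5ar1. Of the libraries labelled female, replicate 3 had the highest and replicate 2 the lowest level of each of these genes. These r values thus take in the distance of female replicate 3 from its group, and r without it was not computed. Likeness was sought among 5345 genes with an established symbol (no Gm number, Rik or clone name) and a mean of at least 5 log2 CPM. Those most like Fpr1 were Il1r2, the decoy receptor of interleukin 1 (r = 0.9945), Rnf144a, a ubiquitin ligase (0.9937), and Narf (0.9935). Those most like Fpr2 were Grina (0.9984), Tcp11l2 (0.9976) and Yaf2 (0.9975), and those most like C5ar1 were the ubiquitin-conjugating enzyme gene Ube2d3 (0.9987), Mxd1, a partner of Max (0.9977), and Grina again (0.997). Such values were common, as 430 genes had r above 0.9 with Fpr1, 479 with Fpr2 and 490 with C5ar1.

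The other receptors of the same kind gave no call. Of 22 formyl peptide receptor paralogs and receptors of leukotrienes, prostaglandins, sphingosine 1-phosphate and metabolites, 15 passed the filter, and by edgeR 0 were higher and 0 lower, with 1 at an unadjusted p under 0.05 and a median log2 fold change of -0.03 (0.0016 over all tested genes). Of all tested genes 7.29% were higher and 6.62% lower. DESeq2 and limma-voom also called 0 of these receptors. Without female replicate 3, 2 were lower. Hcar2, the receptor of niacin and ketone bodies and the one with the highest CPM, had 69.5 ± 7.51 CPM in the libraries labelled female and 63.6 ± 2.14 CPM in those labelled male (log2 0.13, SE 0.076, adjusted p = 0.294). Fpr-rs3, Fpr-rs4, Fpr-rs6 and Fpr-rs7 had 0 counts in all 6 libraries, which allows up to 3 counts per library, or 0.149 to 0.179 CPM, with the limit covering counting error only.

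Among 14 genes of agonists and of the enzymes that make them, 12 passed the filter, 4 were higher and none lower by edgeR, and 4 had an unadjusted p under 0.05 (median log2 0.11). The share higher was 33.3% of those tested, against 7.29% of all tested genes, of which 6.62% were lower. The receptors and all the lists were chosen with earlier results of these data known, so such shares describe them and are not a test. DESeq2 and limma-voom also called none lower. Saa3, a serum amyloid A gene, was 2.09-fold higher at 4.03 ± 0.807 CPM in the libraries labelled female, against 1.92 ± 0.289 CPM in those labelled male (adjusted p = 0.0067). Lpcat2, which makes platelet-activating factor, was 1.32-fold higher at 68.2 ± 5.15 CPM in the libraries labelled female, against 51.8 ± 5.18 CPM in those labelled male (adjusted p = 0.00166). Pla2g4a, the phospholipase that releases arachidonic acid, was 1.22-fold higher (adjusted p = 0.032), and Alox5ap, the partner of 5-lipoxygenase in leukotriene synthesis, 1.19-fold higher (adjusted p = 0.0235). The last 2 are weak calls. Pla2g4a lost its call without female replicate 1 or 2 (adjusted p = 0.153 and 0.1) or male replicate 1, 2 or 3 (0.0508, 0.109 and 0.136), and Alox5ap without male replicate 2 or 3 (0.0612 and 0.162), which left 2 of the 4 without male replicate 2 or 3. Camp, the cathelicidin gene and the one with the highest CPM, had 3873 ± 726 CPM in the libraries labelled female and 3650 ± 121 CPM in those labelled male (log2 0.09, adjusted p = 0.585; -0.08 without female replicate 3).

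Of 10 genes of enzymes that break down the agonists, subunits included, 3 were higher and none lower by edgeR. At an unadjusted p under 0.05 by edgeR there were 5, and the median log2 was 0.06. DESeq2 and limma-voom also called none lower. The share higher was 30%, against 7.29% of all tested genes, of which 6.62% were lower. Cpm, another carboxypeptidase gene, named after its values were seen, was lower without overlap of the groups. It did not pass the test (log2 -0.64, edgeR unadjusted p = 0.0106, adjusted p = 0.0657). Cpd, a carboxypeptidase, was 1.48-fold higher (134 ± 11.2 CPM in the libraries labelled female, 90.8 ± 2.30 CPM in those labelled male, adjusted p = 4.68e-06). Pla2g7, which hydrolyses platelet-activating factor, was 1.40-fold higher at 52.3 ± 2.92 CPM in the libraries labelled female, against 37.4 ± 2.70 CPM in those labelled male (adjusted p = 0.000202). Cyp4f18, which oxidises leukotriene B4 in mouse neutrophils, was 1.30-fold higher at 69.0 ± 6.98 CPM in the libraries labelled female, against 53.0 ± 4.16 CPM in those labelled male (adjusted p = 0.00259). Without female replicate 3 there was 1 lower gene. Pafah1b1, with the highest CPM, had 271 ± 7.28 CPM in the libraries labelled female and 257 ± 8.02 CPM in those labelled male (adjusted p = 0.407).

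Downstream of the receptors, 22 genes of the inhibitory G proteins, phosphoinositide 3-kinase gamma and the Rac pathway were all tested. Of these 7 were higher and 1 lower, with a median log2 of 0.10. The share higher was 31.8%, against 7.29% of all tested genes, of which 6.62% were lower. The largest change was that of Fgr, a Src-family kinase, 1.24-fold higher at 267 ± 28.0 CPM in the libraries labelled female against 215 ± 10.3 CPM in those labelled male (adjusted p = 0.00409). Pak2, a kinase activated by Rac and Cdc42, was 1.21-fold higher (adjusted p = 0.00308), and Gnai3, an inhibitory G protein alpha subunit, 1.20-fold higher (adjusted p = 0.00449). Pik3r6, a regulatory subunit of phosphoinositide 3-kinase gamma, was 1.23-fold lower at 60.9 ± 4.88 CPM in the libraries labelled female, against 74.7 ± 2.60 CPM in those labelled male (adjusted p = 0.00712). Gnai2, the alpha subunit with the highest CPM, had 1150 ± 69.9 CPM in the libraries labelled female and 1036 ± 12.6 CPM in those labelled male and did not pass (adjusted p = 0.0958). The number higher was 4 without male replicate 2 or 3, and the number lower was 2 without female replicate 3.

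Genes that end receptor signalling were called in both directions. Of 16 receptor kinases, arrestins and RGS proteins, which speed the shut-off of G proteins, 1 was higher and 2 lower (median log2 0.02). The share higher was 6.25%, against 7.29% of all tested genes, so the number higher is no result about the list. The 2 lower of 16 stand against 6.62% of all tested genes. That number ran from 1 to 4 with 1 library left out, so it is not read as a result about the list either. Rgs18 was 1.22-fold higher at 104 ± 5.90 CPM in the libraries labelled female against 85.0 ± 2.03 CPM in those labelled male (adjusted p = 0.00359). The receptor kinase gene Grk3 was 1.25-fold lower at 67.9 ± 4.998 CPM in the libraries labelled female, against 84.5 ± 7.77 CPM in those labelled male (adjusted p = 0.00688; 0.0827 without male replicate 3). Rgs1 was 1.21-fold lower at 145 ± 10.03 CPM in the libraries labelled female, against 174 ± 10.4 CPM in those labelled male (adjusted p = 0.0086; 0.0812 without male replicate 1). There were 2 higher genes without female replicate 1 or 2, 4 lower ones without female replicate 3, and 1 lower without male replicate 1 or 3. Arrb2, the arrestin with the highest CPM, had 537 ± 77.0 CPM in the libraries labelled female and 475 ± 26.01 CPM in those labelled male (adjusted p = 0.142).

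Of 13 membrane regulators of complement and receptors of complement-coated particles, 10 passed the filter, 6 were higher and 2 lower (median log2 0.23). The share higher was 60% of those tested, against 7.29% of all tested genes, of which 6.62% were lower. Itgam, the alpha chain of complement receptor 3, was 1.24-fold higher at 534 ± 68.5 CPM in the libraries labelled female against 430.3 ± 19.4 CPM in those labelled male (adjusted p = 0.00636; 0.0509 without male replicate 2). Its partner Itgb2 was 1.16-fold higher at 763 ± 55.7 CPM in the libraries labelled female, against 656 ± 12.4 CPM in those labelled male (adjusted p = 0.0192; 0.0791, 0.0979 and 0.0798 without male replicate 1, 2 and 3). Itgax, the alpha chain of complement receptor 4 and also a dendritic cell gene, was 1.38-fold lower at 22.3 ± 1.17 CPM in the libraries labelled female, against 30.9 ± 1.29 CPM in those labelled male (adjusted p = 0.00106). Cr2, a complement receptor of B cells, was 1.61-fold lower at 4.31 ± 1.25 CPM in the libraries labelled female, against 6.95 ± 0.435 CPM in those labelled male (adjusted p = 0.0232; 0.101 without female replicate 1, and 0.0661, 0.0845 and 0.0519 without male replicate 1, 2 and 3). The number higher was 2 without male replicate 1 and 1 without male replicate 2 or 3, and the number lower was 1 without female replicate 1 or male replicate 1, 2 or 3.

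**Figure D4:**
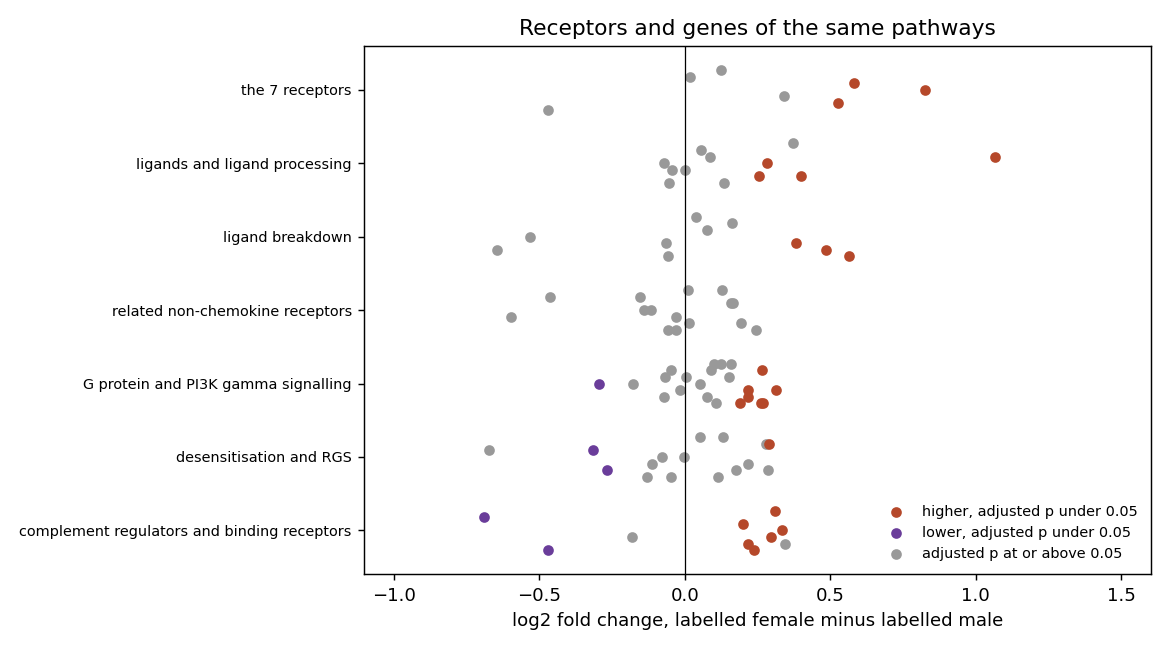
Log2 fold change, libraries labelled female minus those labelled male (horizontal axis), of each tested gene, 1 point per gene, for the 7 receptors and the 6 related lists (rows; the height within a row has no meaning). Coloured points passed the test. The row of related receptors has no coloured point, and Fpr1 lies at 0.83.

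Markers of the cell types in the preparation were read beside these results. Counts of markers called stand against 7.29% of all tested genes higher and 6.62% lower. In bulk RNA, fewer cells of a type and less RNA per cell cannot be told apart. The 11 measured neutrophil markers summed to between 63429 and 81750 CPM in the libraries labelled female and between 56518 and 62527 CPM in those labelled male, and 8 of the 11 were higher by edgeR. S100a9, the one with the highest CPM, had 19052 ± 2431 CPM in the libraries labelled female and 15660 ± 1086 CPM in those labelled male. The markers with the largest folds, named after their values were seen, had folds close to those of the called receptors or above. Retnlg was 2.38-fold higher, Mmp8 1.95-fold, Mmp9 1.70-fold, Ly6g 1.42-fold and Csf3r, the receptor of granulocyte colony-stimulating factor, 1.40-fold (adjusted p at most 0.000269 by edgeR). The remaining neutrophil markers had smaller folds than the called receptors. S100a9 was 1.217-fold higher, Lcn2 1.2-fold and S100a8 1.191-fold. Ltf (1.097-fold), Ngp (1.086-fold) and Camp (1.061-fold) were not called. The mean sum of the neutrophil markers was 1.18-fold higher, against 1.32-fold for the 7 receptors. Most of the neutrophil sum came from S100a9, Ngp, S100a8 and Ltf, whose folds are given above, and the receptor sum includes the 3 called receptors. Summed levels of the 7 receptors were 652, 602 and 736 CPM in the libraries labelled female, against 495, 482 and 527 CPM in those labelled male, and female replicate 3 was the highest in both sums.

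Other cell types were present too. The 14 monocyte and macrophage markers summed to 2411 to 2459 CPM in the libraries labelled female and 2177 to 2252 CPM in those labelled male, with 2 higher and 1 lower. Ly6c2, with the highest CPM, had 1126 ± 74.1 CPM in the libraries labelled female and 1160 ± 23.8 CPM in those labelled male. Ccr2, a chemokine receptor of monocytes named after its values were seen, had 879 ± 58.7 CPM in the libraries labelled female and 613 ± 28.4 CPM in those labelled male (1.43-fold higher, adjusted p = 5.32e-06), a fold close to that of C5ar1. The rise of Ccr2 was larger than that of the mean sum (2429 CPM labelled female, 2207 CPM labelled male). The other monocyte and macrophage markers together were therefore not higher. Fcgr1, also named after its values were seen, went the other way (1.625-fold lower, adjusted p = 1.20e-05 by edgeR). Csf1r and Cx3cr1 hardly changed (log2 -0.02 for each). Of the 14 markers 10 had a positive log2 change, and 11 were not called. Since monocytes also carry formyl peptide and C5a receptors, their transcripts cannot be told apart here from those of neutrophils. The 7 measured B cell markers summed to 147 to 206 CPM in the libraries labelled female and 244 to 303 CPM in those labelled male, with 5 lower. Dendritic cell markers, 8 in number, summed to 210.1 to 216 CPM in the libraries labelled female and 304 to 321 CPM in those labelled male, with 5 lower, among them Siglech (1.55-fold, adjusted p = 7.80e-07). The 8 mast cell and basophil markers, of which Mcpt4 and Tpsb2 were at 0 throughout, summed to 282 to 314 CPM in the libraries labelled female and 297 to 334 CPM in those labelled male. Sums of 4 eosinophil markers were 36.2 to 36.8 CPM in the libraries labelled female and 33.0 to 34.6 CPM in those labelled male, and those of 7 T and NK cell markers 115 to 132 CPM (labelled female) and 120 to 136 CPM (labelled male). For 8 endothelial and fibroblast markers the sums were 53.9 to 64.5 CPM (labelled female) and 68.0 to 71.4 CPM (labelled male). Platelet markers, 4 in number with Gp1bb at 0, summed to 21.1 to 25.9 CPM (labelled female) and 24.7 to 28.7 CPM (labelled male). The share of counts from mitochondrially encoded transcripts was 7.43 ± 1.04% (SD, n = 3) in the libraries labelled female, against 11.99 ± 1.23% in those labelled male. With these transcripts left out before library sizes were computed, the same 3 receptors passed the test. The part of the neutrophil, monocyte, B cell and dendritic cell markers in the receptor differences was not tested.

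**Figure D5:**
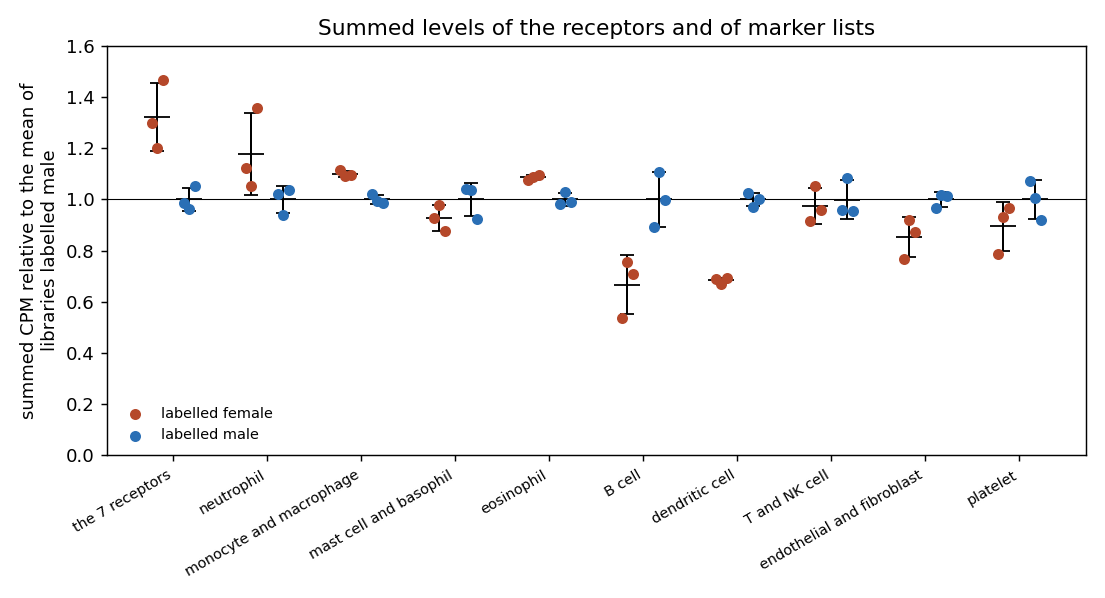
Summed CPM of the 7 receptors and of 9 marker lists, divided by the mean of the libraries labelled male (vertical axis, from 0), with libraries labelled female left and male right in each pair and the mean and SD in black. The receptors and the neutrophil markers are high in female replicate 3, at 736 and 81750 CPM, and the B cell and dendritic cell markers are low in all 3 libraries labelled female.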

How the data were processed

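The authors deposited raw counts per Ensembl gene, whole numbers without normalization, 1 table per library. HISAT2 2.0.5, cutadapt 1.15 and the build GRCm39 are named, per the submitters' processing notes. What counted the reads, and how strand and shared reads were treated, is not stated. Symbols, gene lengths and transcripts came from GENCODE M21 of an older build, which named 21847 of 21955 identifiers, so no gene coordinates are printed. The promoter windows are from RefSeq.

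Groups are those of the labels. The test was edgeR's quasi-likelihood test (version 4.0.16, R 4.3.3) with TMM factors, filterByExpr at 10 counts, Benjamini-Hochberg adjustment over 11903 genes and a threshold of 0.05. Its model held the group alone, and the pipeline was tested on simulated counts. Log2 fold changes are female minus male. Standard errors come from the change and its F statistic, and 95% intervals from the moderated degrees of freedom. Levels are CPM after TMM, as mean ± SD. An exact two-sided permutation test was used for each ratio.

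Alternatives were DESeq2 1.42.0, limma-voom (limma 3.58.1), DESeq2 size factors, upper-quartile factors, 2 other filters, the replicate number as a block, each library left out and mitochondrially encoded genes left out. The receptors and the lists were chosen with earlier results of these data known. By a rule written with the lists, the text may name up to 4 called genes of each list and its gene with the highest CPM. Those of 5 minor marker lists, and the genes most like C5ar2, C3ar1, Ltb4r1 and Ptafr, are left out. Cxcr2, Ighm and Trbc2 were not analysed here. Some genes that the rule names are not reported here. No library was a copy of another (chi-square per degree of freedom between libraries of a group, 4.10 to 16.5).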

Additional observations from a re-analysis of the deposited data

How the results depend on the processing

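Fpr1, Fpr2 and C5ar1 stayed higher under all 14 alternatives, with an adjusted p of at most 9.31e-05, 0.000851 and 0.000763, and the count of receptors was 3 higher and 0 lower under each. C5ar2 and C3ar1 (13 alternatives, as a filter of 10 CPM in 3 libraries removes both) and Ptafr and Ltb4r1 (14) passed under none, with adjusted p from 0.103 to 0.229, 0.129 to 0.833, 0.272 to 0.489 and 0.368 to 0.985. With 1 library left out, log2 fold changes ranged from 0.31 to 0.36 for C5ar2, -0.76 to -0.16 for C3ar1, 0.10 to 0.16 for Ptafr and -0.077 to 0.10 for Ltb4r1, which turned to -0.077 without female replicate 3 and -0.021 without male replicate 2; the cause was not tested. Likewise Camp had -0.079 without female replicate 3 (range -0.079 to 0.165) and Ly6c2 0.0054 without female replicate 2 (range -0.091 to 0.0054).

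Genes called over the whole table numbered 868 higher and 788 lower, and 439 to 1439 and 467 to 1269 with 1 library left out, where fewer samples are fitted. Leaving out 1 library gave 2 to 4 higher agonist genes, 0 to 1 lower breakdown genes, 0 to 2 lower related receptors, 4 to 7 higher and 1 to 2 lower signalling genes, 1 to 2 higher and 1 to 4 lower desensitisation genes, and 1 to 6 higher and 1 to 2 lower complement genes. Without a filter 1 breakdown gene was lower and 4 desensitisation genes, Arrb2 among them, were higher. A filter of 10 CPM left 1 lower complement gene. No scaling moved the median of all genes by over 0.1.

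The replicate number as a block gave 1007 higher and 914 lower genes, 3 higher receptors (Fpr1 0.83, Fpr2 0.58, C5ar1 0.52) and 2 higher desensitisation genes. For the ratios the block gives 0.26, 0.31 and 0.18, the unblocked differences by construction. Libraries of the same number did not deviate together (correlations -0.04, 0.06 and 0.06; 2 of 6 correlated best with their own number). With 3 libraries a group this cannot exclude a pairing by number. The block lowered the SE of Fpr1 from 0.0888 to 0.0723, that of Fpr2 from 0.0756 to 0.0605 and that of C5ar1 from 0.0674 to 0.0583. Depth limits C3ar1 most.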
